A study of Homo sapiens and Mus musculus with 8 samples.

Results

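A set of 57 interferon-stimulated genes was followed in OVCAR-8, a human ovarian cancer cell line, after CRISPR knockout of ATG9A. The genes were taken by symbol from the raw count table, in which each of the 57 matched a single identifier among 58381, and they were sorted by role into RNA and DNA sensors, double-stranded RNA enzymes, ISG15 conjugation, RNA-binding and enzymatic effectors, membrane and capsid effectors, nuclear body proteins, immunoproteasome and guanylate-binding proteins, other induced proteins, and transcription factors and signalling. Bulk RNA was sequenced from sgATG9A cells, which carry a guide against ATG9A, and from control sgGAL4 cells, whose guide targets a yeast gene, with 2 libraries per group that the labels describe as biological replicates. Guides were delivered with the lentiCRISPRv2 vector to both groups, no cytokine or macrophage treatment is named for these libraries, and whether the cells were a pool or a clone is not given in the sources used here. The libraries held 22709310 and 22969233 counts in sgATG9A cells, against 22200998 and 22782243 counts in sgGAL4 cells, and mitochondrial genes took between 3.717% and 4.385% of each.

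Interferon-stimulated genes encode sensors, effectors and regulators of antiviral defence. Type I and type III interferons act through receptors and the kinases JAK1 and TYK2 on a complex with STAT2 and IRF9 that binds the interferon-stimulated response element (ISRE) of many promoters, whereas interferon-γ acts mainly on a different element. The interferon regulatory factors IRF1, IRF3 and IRF7 and the factor NF-kB can act on some of the same promoters without interferon, and many cancer cell lines express some of these genes without any added interferon.

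Of the 57 genes, 49 had enough counts to be tested. With edgeR's quasi-likelihood test, two-sided and with Benjamini-Hochberg adjustment over all 16141 genes tested, 21 of the 49 were higher in sgATG9A cells at an adjusted p under 0.05 (42.9%, against 8.93% of all genes tested), 4 were lower (8.16%, against 7.42%) and 24 did not pass. More than 2-fold higher were 5 genes (DDX60, IFI44, DDX58, ISG15 and OASL), a change seen in 1.28% of all genes tested, and none was more than 2-fold lower (0.644% of all genes). The median log2 fold change over the 49 was 0.22, against 0.00 over all genes tested. The 57 genes were chosen with earlier results of these data known. The shares and the median therefore only describe them, and no set test was made. The classes moved unevenly. Higher genes were mostly found among sensors, double-stranded RNA enzymes, ISG15 conjugation, RNA-binding effectors and guanylate-binding proteins, whereas 2 of the 4 lower genes belonged to the membrane effectors and the fold changes of the transcription factors had the narrowest range. The share of genes whose libraries do not overlap between groups was 39 of 49, against 55.3% of all genes tested. In bulk RNA, more RNA in every cell and more cells with the RNA cannot be told apart.

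Levels are given as CPM, counts scaled to 1000000 of the normalized total of each library. They are compared within a gene and not between genes, since they are not divided by length. ATG9A itself, a membrane protein of the vesicles that build autophagosomes, had 12.8 and 11.5 CPM in sgATG9A cells, against 20.4 and 18.4 CPM in sgGAL4 cells. The groups did not overlap and ATG9A was 1.60-fold lower (log2 fold change -0.68, SE 0.10, adjusted p = 4.22e-05, edgeR). The labels name the guide's target and not an RNA level, and a guide that changes the coding sequence need not remove the RNA.

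**Figure D1:**
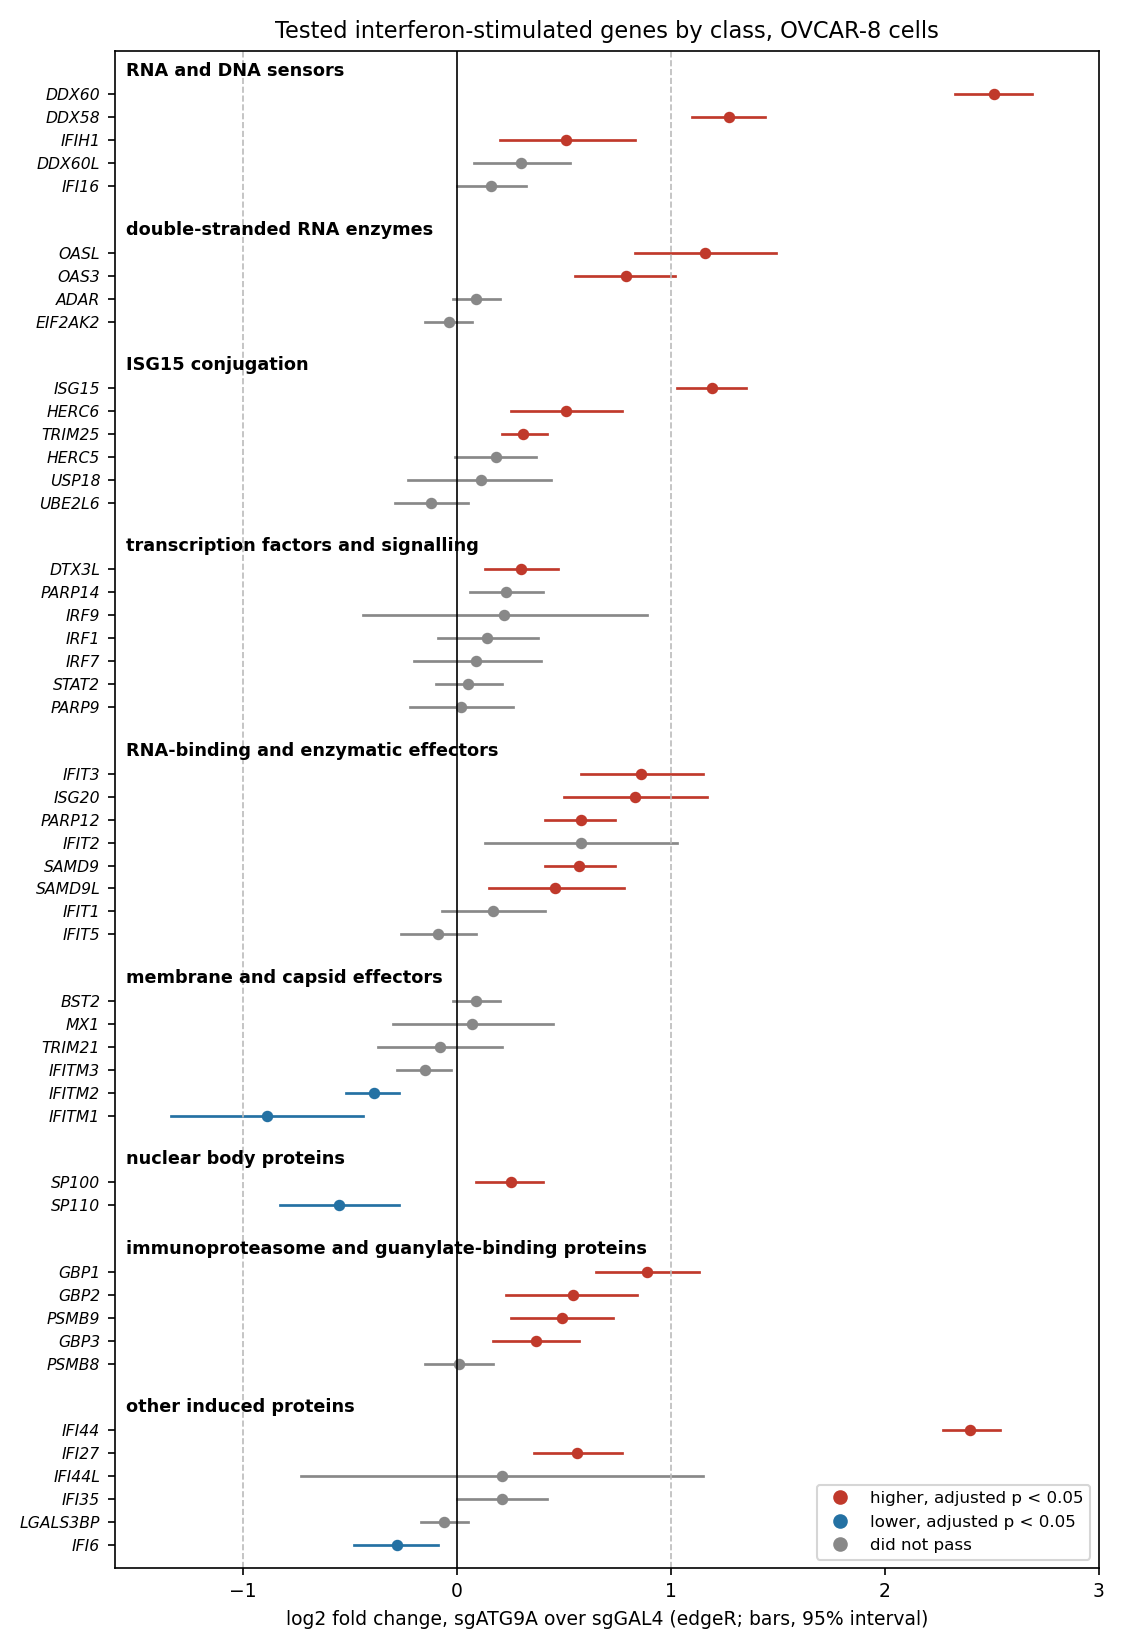
Log2 fold change of each of the 49 tested genes (horizontal axis, sgATG9A over sgGAL4), grouped by class on the vertical axis; points are edgeR estimates and bars their 95% intervals, red for higher, blue for lower and grey for genes that did not pass, and dashed lines mark a 2-fold change. DDX60 and IFI44 stand far to the right of the rest, at 2.51 and 2.40, and the points of the transcription factors lie between 0.02 and 0.30.

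**Figure D2:**
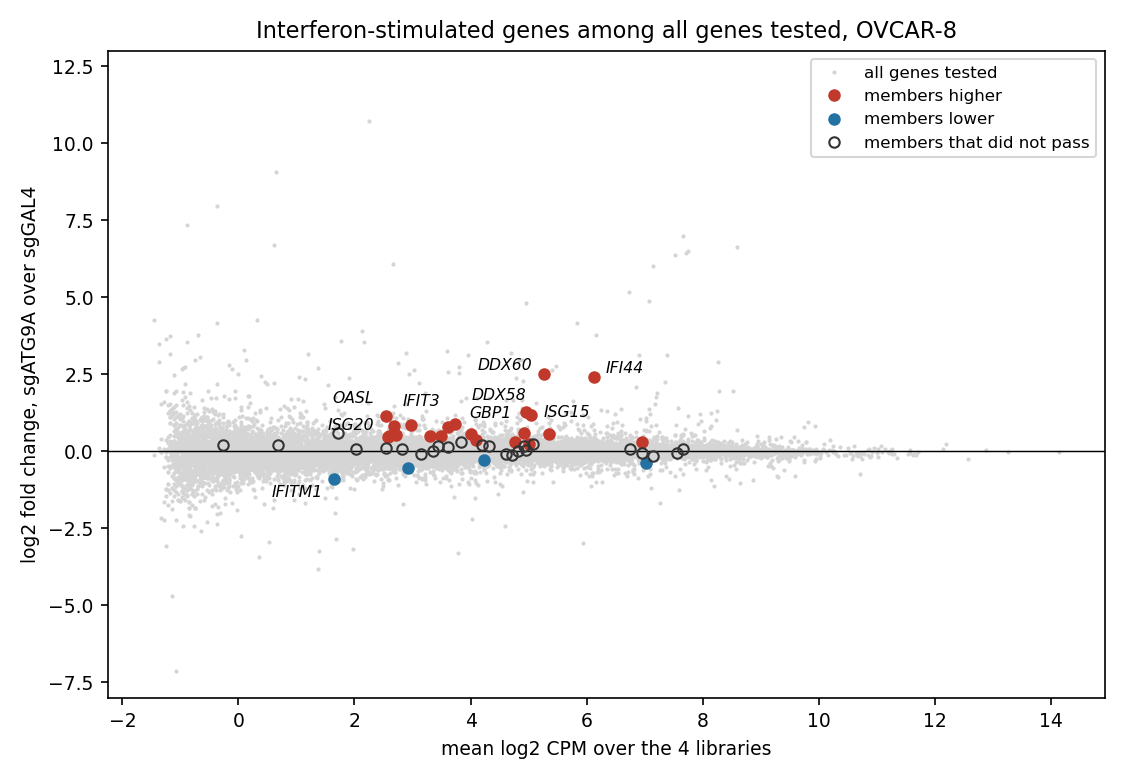
Log2 fold change (vertical axis, sgATG9A over sgGAL4) against mean log2 CPM over the 4 libraries (horizontal axis) for all 16141 genes tested, in light grey, with the 49 interferon-stimulated genes as larger circles. The 21 higher genes (red) lie up to 2.51, well inside the range of all genes, and the 4 lower ones (blue) reach -0.89.

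The promoters of 10 genes show what the letters upstream of higher genes, lower genes and genes that did not pass hold. RefSeq promoters (GRCh38.p14, 250 bases before to 50 bases after the gene's start) were found for 48 of the 57 genes, DDX58 under its current symbol RIGI. They were searched on both strands for the ISRE core (GAAA, any 2 bases, GAAA), the STAT dimer motif (TTC, any 3 bases, GAA) and the NF-kB motif (GGGA, any base, TTTCC). The motifs were searched separately, so that matches of different motifs may share bases. The start is that of RefSeq and can lie inside the gene as counted, which follows GENCODE. The counted DDX60L gene (minus strand) reaches 168537786, upstream of its printed window. The counted ISG15 and IFI44L genes (plus strand) begin at 1001138 and 78619922, also upstream of their windows. The 180 bases before the start are printed 5′ to 3′ on the gene's strand, with the matches of any of the 3 motifs in capitals, so that overlapping matches run together. The first 4 are 2 pairs of neighbouring genes of which only the first passed edgeR's test, IFI44 at chr1:78649609-78649788 (plus strand) with IFI44L at chr1:78620268-78620447 (plus strand), and DDX60 at chr4:168318753-168318932 (minus strand) with DDX60L at chr4:168480493-168480672 (minus strand).
IFI44: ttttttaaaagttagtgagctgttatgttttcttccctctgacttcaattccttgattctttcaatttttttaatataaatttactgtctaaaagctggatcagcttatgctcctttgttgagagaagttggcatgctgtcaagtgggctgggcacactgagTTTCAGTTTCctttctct
IFI44L: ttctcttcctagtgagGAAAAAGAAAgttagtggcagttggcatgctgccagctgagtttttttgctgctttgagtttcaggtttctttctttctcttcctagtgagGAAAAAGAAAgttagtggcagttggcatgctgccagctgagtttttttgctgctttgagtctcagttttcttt
DDX60: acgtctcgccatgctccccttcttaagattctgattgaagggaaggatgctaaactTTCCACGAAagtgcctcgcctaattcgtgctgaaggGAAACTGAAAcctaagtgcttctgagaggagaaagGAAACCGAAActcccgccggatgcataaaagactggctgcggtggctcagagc
DDX60L: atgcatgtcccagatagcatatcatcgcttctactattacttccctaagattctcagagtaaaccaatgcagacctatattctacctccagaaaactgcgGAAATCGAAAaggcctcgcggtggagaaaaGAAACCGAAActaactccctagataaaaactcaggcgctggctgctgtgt

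IFI44, which rose, has a single ISRE core match (TTTCAGTTTC, the reverse strand) 18 bases before the start, and IFI44L, which did not pass, has 2 (GAAAAAGAAA each), at 164 and 73 bases. DDX60, which rose, has GAAACTGAAA at 88 and GAAACCGAAA at 53 bases before the start and a STAT dimer match, TTCCACGAA, at 124 bases. DDX60L, which did not pass, has GAAATCGAAA at 80 and GAAACCGAAA at 50 bases.

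The next 3 each hold more than a single ISRE core match and belong to a gene that was higher (ISG15, chr1:1013317-1013496 (plus strand)), one that did not pass (IFIT1, chr10:89392443-89392622 (plus strand)) and one that was lower (IFI6, chr1:27672193-27672372 (minus strand)).
ISG15: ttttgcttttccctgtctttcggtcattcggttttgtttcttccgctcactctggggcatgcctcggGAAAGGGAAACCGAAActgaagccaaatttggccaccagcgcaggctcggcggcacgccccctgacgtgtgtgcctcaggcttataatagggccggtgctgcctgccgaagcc
IFIT1: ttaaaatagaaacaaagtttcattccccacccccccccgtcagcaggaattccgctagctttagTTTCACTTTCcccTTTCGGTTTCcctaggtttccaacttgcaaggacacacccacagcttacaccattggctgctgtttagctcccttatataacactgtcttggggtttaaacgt
IFI6: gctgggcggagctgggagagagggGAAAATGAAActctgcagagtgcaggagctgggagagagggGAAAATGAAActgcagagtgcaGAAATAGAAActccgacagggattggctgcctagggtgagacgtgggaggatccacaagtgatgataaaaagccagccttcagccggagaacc

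ISG15 has 2 overlapping matches, at 113 and 107 bases before the start. IFIT1 has 2 on the reverse strand, at 116 and 103 bases, and IFI6 has 3, at 156, 115 and 93 bases. The last 3 are the promoters with an NF-kB match, of DDX58 (chr9:32526197-32526376 (minus strand)), IFIH1 (chr2:162318685-162318864 (minus strand)) and OAS3 (chr12:112938294-112938473 (plus strand)), all of which were higher.
DDX58: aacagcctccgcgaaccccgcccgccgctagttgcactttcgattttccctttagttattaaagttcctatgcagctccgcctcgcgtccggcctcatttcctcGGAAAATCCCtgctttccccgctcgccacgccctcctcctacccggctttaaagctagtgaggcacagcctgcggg
IFIH1: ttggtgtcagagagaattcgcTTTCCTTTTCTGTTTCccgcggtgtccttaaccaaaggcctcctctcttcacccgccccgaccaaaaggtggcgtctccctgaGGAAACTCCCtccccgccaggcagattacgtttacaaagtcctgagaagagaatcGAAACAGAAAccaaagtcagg
OAS3: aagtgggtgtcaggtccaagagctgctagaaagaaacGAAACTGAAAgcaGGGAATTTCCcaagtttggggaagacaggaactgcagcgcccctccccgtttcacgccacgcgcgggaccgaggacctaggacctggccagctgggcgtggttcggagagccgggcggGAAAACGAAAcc

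The NF-kB match of DDX58 is GGAAAATCCC on the reverse strand, 76 bases before the start, and that of IFIH1 is GGAAACTCCC, also on the reverse strand and at 76 bases. OAS3 has GGGAATTTCC at 130 bases. The motif was in 3 of the 48 promoters (6.25%), against 0.558% of 35116 promoters in the table. By call, it was in 3 of 19 promoters of higher genes (15.8%), 0 of 3 of lower genes and 0 of 21 of genes that did not pass. With 3 matches in all, a link between this motif and the calls was not tested. No ISRE core was found in this window of DDX58, whereas IFIH1 has 3 and OAS3 has 2.

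The ISRE core was in 28 of the 48 promoters (58.3%), against 3.57% of all 35116 promoters. It did not separate the calls, since it was in 13 of 19 promoters of higher genes (68.4%), in 2 of 3 of lower genes, in 12 of 21 of genes that did not pass (57.1%) and in 1 of 5 of genes too low to test. The median log2 fold change was 0.18 over 16 tested genes with no match, 0.37 over 11 with 1 match, 0.26 over 12 with 2 matches and 0.04 over 4 with 3 matches. The STAT dimer motif was in 11 of 48 promoters (22.9%), against 7.66% of all promoters, and in 3 of the 19 of higher genes (15.8%). A match is a run of letters and not a measured binding site.

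**Figure D3:**
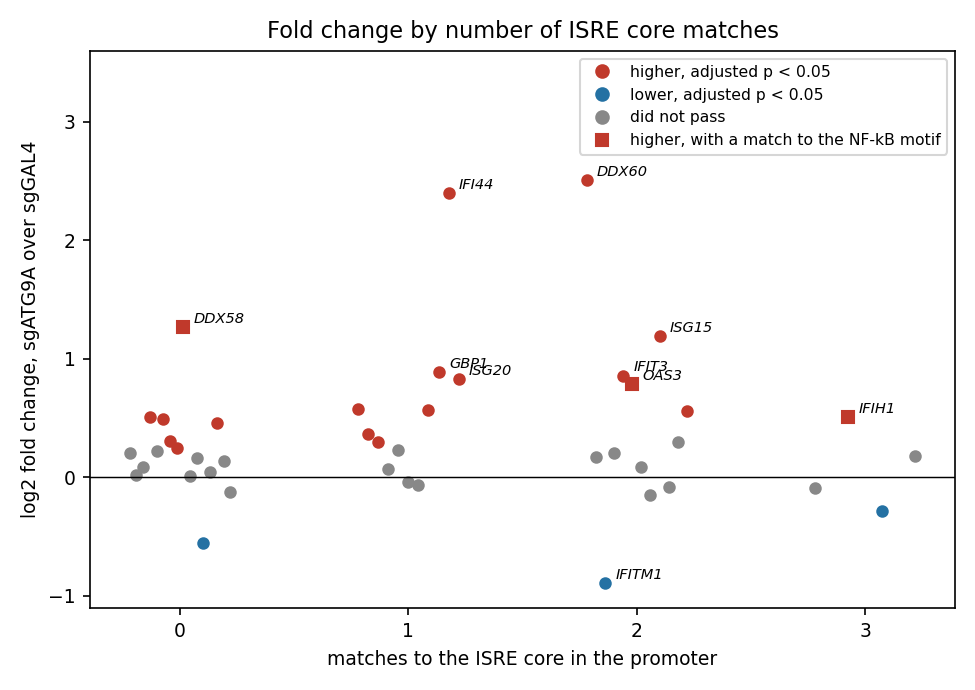
Log2 fold change (vertical axis, sgATG9A over sgGAL4) of the 43 tested genes with a RefSeq promoter against the number of ISRE core matches in it (horizontal axis, points spread sideways within each number); red points are higher, blue lower, grey did not pass, and squares have an NF-kB match. Higher genes and genes that did not pass occur at every number of matches. The 3 squares, DDX58, OAS3 and IFIH1, are all red, among 19 red points of the 43.

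Among the sensors, which bind foreign RNA or DNA in the cell, 3 of 5 tested genes were higher and none lower. DDX60 (chromosome 4, 168216293 to 168318807), a helicase described as aiding RNA sensing, had 65.3 and 65.4 CPM in sgATG9A cells, against 10.7 and 12.3 CPM in sgGAL4 cells. The sgATG9A libraries lie far above both sgGAL4 libraries and close to each other, and DDX60 was 5.70-fold higher (log2 fold change 2.51, SE 0.08, adjusted p = 1.50e-16, edgeR), the largest change of the 49 genes. DDX58 (chromosome 9, 32455705 to 32526324), which encodes RIG-I, the sensor of RNA ends, had 42.9 and 45.0 CPM in sgATG9A cells, against 16.9 and 19.5 CPM in sgGAL4 cells. The groups did not overlap (log2 fold change 1.27, SE 0.08, adjusted p = 7.13e-11, edgeR).

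IFIH1, which encodes MDA5, the sensor of long double-stranded RNA, had 6.71 and 7.34 CPM in sgATG9A cells, against 4.64 and 5.19 CPM in sgGAL4 cells. It was higher by less (log2 fold change 0.51, SE 0.15, adjusted p = 0.0222, edgeR), and its adjusted p ran from 0.00813 to 0.206 over the 9 alternatives. The call was lost without sgATG9A replicate 2 (adjusted p = 0.139), without sgGAL4 replicate 1 (adjusted p = 0.164), with DESeq2 and with no filter on low counts. DDX60L, a paralog of DDX60, and IFI16, which binds DNA, did not pass, at log2 fold changes of 0.30 and 0.16, although DDX60L passed without sgGAL4 replicate 1 (log2 fold change 0.43, adjusted p = 0.0405). DHX58, which encodes the RIG-I regulator LGP2, had 6 and 1 counts in sgATG9A cells, against 4 and 2 counts in sgGAL4 cells, too few to test.

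The enzymes that bind double-stranded RNA split into 2 that were higher (50.0%, against 8.93% of all genes tested) and 2 that did not pass. OASL (chromosome 12, 121019111 to 121039242), an oligoadenylate synthetase-like protein without synthetase activity that binds RIG-I, had 7.77 and 8.17 CPM in sgATG9A cells, against 3.48 and 3.65 CPM in sgGAL4 cells. Both sgATG9A libraries were above both sgGAL4 libraries (2.23-fold higher, log2 fold change 1.16, SE 0.16, adjusted p = 9.89e-06, edgeR). OAS3, a synthetase of the oligoadenylates that activate RNase L, had 15.2 and 15.4 CPM in sgATG9A cells, against 8.39 and 9.37 CPM in sgGAL4 cells, and was higher too (log2 fold change 0.79, SE 0.11, adjusted p = 1.82e-05, edgeR). Its sisters OAS1 and OAS2, which flank OAS3 on chromosome 12, were barely seen, with 1 and 0 counts of OAS1 in sgATG9A cells against 0 and 2 in sgGAL4 cells, and 6 and 0 counts of OAS2 in sgATG9A cells against 5 and 0 in sgGAL4 cells.

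ADAR, the enzyme that converts adenosines in double-stranded RNA to inosines, had 212 and 204 CPM in sgATG9A cells, against 189.8 and 200.4 CPM in sgGAL4 cells. Its log2 fold change of 0.09 did not pass (95% interval -0.02 to 0.20, adjusted p = 0.271, edgeR). EIF2AK2, which encodes the kinase PKR that halts translation, overlapped between groups, with 118 and 128 CPM in sgATG9A cells against 124 and 128 CPM in sgGAL4 cells (log2 fold change -0.04, 95% interval -0.15 to 0.07). Both intervals leave out changes of the size seen in OASL and OAS3.

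ISG15 conjugation links the ubiquitin-like protein ISG15 to other proteins. In this class 3 of 6 genes were higher (50.0%, against 8.93% of all genes tested). ISG15 (chromosome 1, 1001138 to 1014540) had 44.6 and 46.7 CPM in sgATG9A cells, against 19.8 and 20.2 CPM in sgGAL4 cells. The groups were well apart (2.29-fold higher, log2 fold change 1.19, SE 0.08, adjusted p = 4.57e-11, edgeR). TRIM25, a ligase of ISG15 that also modifies RIG-I, had 132 and 141 CPM in sgATG9A cells, against 107 and 113 CPM in sgGAL4 cells (log2 fold change 0.31, SE 0.05, adjusted p = 0.000147, edgeR). HERC6, which in the mouse is the main ISG15 ligase, had 11.1 and 11.8 CPM in sgATG9A cells, against 8.79 and 7.26 CPM in sgGAL4 cells (log2 fold change 0.51, SE 0.13, adjusted p = 0.00588, edgeR).

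The HERC6 call was lost without sgGAL4 replicate 2 (adjusted p = 0.106), with DESeq2 and with no filter on low counts, in a range of 0.000493 to 0.109 over the 9 alternatives. UBE2L6, the conjugating enzyme, had a log2 fold change of -0.12 (95% interval -0.29 to 0.05), and HERC5, the main ligase in human cells, had 0.18 (95% interval -0.01 to 0.37), and neither passed. USP18, which removes ISG15 and restrains the interferon receptor, had 5.48 and 6.46 CPM in sgATG9A cells, against 6.11 and 4.97 CPM in sgGAL4 cells, so that the groups overlapped.

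**Figure D4:**
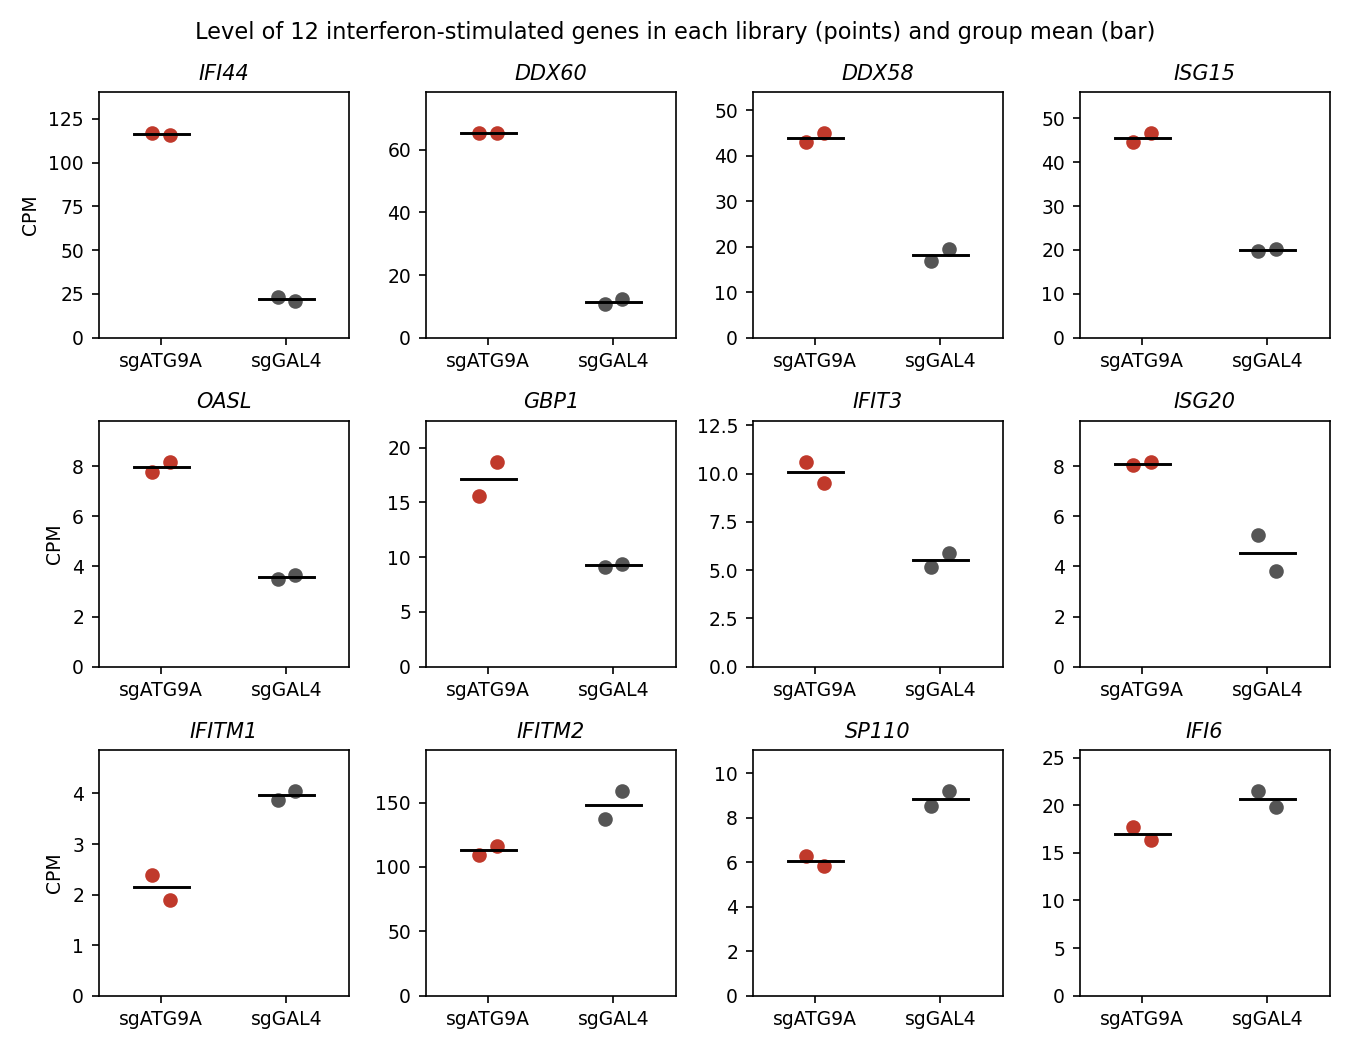
CPM (vertical axes, each from 0 and scaled to its gene) of 12 interferon-stimulated genes in the 2 sgATG9A libraries (red points) and the 2 sgGAL4 libraries (grey points), with bars for the group means. The upper 8 genes are higher and the lower 4 (IFITM1, IFITM2, SP110 and IFI6) lower in sgATG9A cells, and the groups do not overlap in any of them.

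The RNA-binding and enzymatic effectors act on viral RNA or on translation. In this class 5 of 8 tested genes were higher (62.5%, against 8.93% of all genes tested), none by 2-fold. SAMD9, a restriction factor of poxviruses, had 46.1 and 51.0 CPM in sgATG9A cells, against 35.2 and 30.1 CPM in sgGAL4 cells (log2 fold change 0.57, SE 0.08, adjusted p = 1.10e-05, edgeR). PARP12, an ADP-ribosyltransferase, had 35.3 and 37.3 CPM in sgATG9A cells, against 25.7 and 22.9 CPM in sgGAL4 cells (log2 fold change 0.58, SE 0.08, adjusted p = 1.43e-05, edgeR). IFIT3, which stabilizes the binding of IFIT1 to viral RNA ends, had 10.6 and 9.53 CPM in sgATG9A cells, against 5.17 and 5.90 CPM in sgGAL4 cells (log2 fold change 0.86, SE 0.14, adjusted p = 7.65e-05, edgeR). In each of the 3 genes both sgATG9A libraries exceeded both sgGAL4 libraries.

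ISG20, an exonuclease that degrades single-stranded RNA, was higher at 8.04 and 8.17 CPM in sgATG9A cells, against 5.26 and 3.83 CPM in sgGAL4 cells (log2 fold change 0.83, SE 0.16, adjusted p = 0.000628, edgeR). That call was lost only with no filter on low counts (adjusted p = 0.0645, in a range of 1.33e-06 to 0.0645 over the 9 alternatives). SAMD9L, the neighbour and paralog of SAMD9, had 7.02 and 6.59 CPM in sgATG9A cells, against 4.77 and 5.10 CPM in sgGAL4 cells (log2 fold change 0.46, SE 0.15, adjusted p = 0.0396, edgeR). The SAMD9L call is fragile. It was kept under 3 of 9 alternatives (adjusted p from 0.0221 to 0.284) and lost when any single library was left out, with adjusted p = 0.175 and 0.0731 without sgATG9A replicate 1 or 2 and 0.190 and 0.0905 without sgGAL4 replicate 1 or 2. IFIT2, a partner of IFIT1 and IFIT3, did not pass at 3.45 and 4.17 CPM in sgATG9A cells, against 2.90 and 2.20 CPM in sgGAL4 cells (log2 fold change 0.58, 95% interval 0.13 to 1.03, adjusted p = 0.0737, edgeR), but passed without sgATG9A replicate 1 (log2 fold change 0.71, adjusted p = 0.0498).

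IFIT1, which binds RNA that lacks the host's cap methylation, and its relative IFIT5 did not pass, at log2 fold changes of 0.17 (95% interval -0.07 to 0.41) and -0.09 (95% interval -0.26 to 0.09). RSAD2, which encodes the radical SAM enzyme viperin, and its neighbour CMPK2, a nucleotide kinase, had 0 counts in all 4 libraries. So did XAF1, a proapoptotic protein grouped with the other induced proteins. A gene on the opposite strand covers 38.32% of the exon bases of XAF1, and reads from that stretch were not counted. A count of 0 allows up to 3 counts over a group, a limit that covers counting error only.

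The membrane and capsid effectors block entry, uncoating or release of viruses. Among 6 tested genes 2 were lower (33.3%, against 7.42% of all genes tested), none was higher (against 8.93%) and 4 did not pass. DESeq2 called 1 lower and none higher. IFITM2, a protein that blocks viral fusion in endosomes (chromosome 11, 307631 to 315272), had 109.6 and 116 CPM in sgATG9A cells, against 137 and 159 CPM in sgGAL4 cells. The groups did not overlap and IFITM2 was 1.31-fold lower (log2 fold change -0.39, SE 0.06, adjusted p = 5.95e-05, edgeR), a call lost only with no filter on low counts (adjusted p = 0.0614, in a range of 1.55e-13 to 0.0614). IFITM1 (chromosome 11, 313506 to 315272), which acts at the cell surface, had 2.39 and 1.89 CPM in sgATG9A cells, against 3.88 and 4.05 CPM in sgGAL4 cells, and was 1.85-fold lower (log2 fold change -0.89, SE 0.22, adjusted p = 0.00572, edgeR).

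The IFITM1 call rested on 54 and 43 counts in sgATG9A cells, against 87 and 92 counts in sgGAL4 cells. It was lost without sgATG9A replicate 2 (adjusted p = 0.0561), without sgGAL4 replicate 2 (adjusted p = 0.0513), with DESeq2 and with no filter on low counts, in a range of 0.000737 to 0.0870. IFITM3, the third of these neighbours, had 134 and 133 CPM in sgATG9A cells, against 139 and 158 CPM in sgGAL4 cells, and did not pass (log2 fold change -0.15, 95% interval -0.28 to -0.03, adjusted p = 0.0754, edgeR); it passed without sgGAL4 replicate 1 (log2 fold change -0.25, adjusted p = 0.0134). In the annotation 351 exon bases are shared by IFITM1 and IFITM2, 32.5% of the exon bases of IFITM1, and the authors' counting left out reads that overlap more than a single gene. A noncoding gene on the opposite strand likewise covers 21.29% of the exon bases of IFITM3. The IFITM genes are also near-identical copies over part of their length, and reads that map to several places were not counted, so their levels are uncertain.

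BST2, or tetherin, which holds budding virus at the surface, had 111 and 109 CPM in sgATG9A cells, against 99.7 and 107 CPM in sgGAL4 cells, with a log2 fold change of 0.09 that did not pass (95% interval -0.02 to 0.20). MX1, a dynamin-like GTPase that traps viral capsids and is often used as a marker of interferon signalling, had 93 and 92 counts in sgATG9A cells, against 84 and 91 counts in sgGAL4 cells (log2 fold change 0.07, 95% interval -0.30 to 0.45). TRIM21, a cytosolic antibody receptor, overlapped between groups (log2 fold change -0.08, 95% interval -0.37 to 0.21). TRIM22 had 1 and 6 counts in sgATG9A cells, against 2 and 0 counts in sgGAL4 cells, and was not tested.

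The 2 nuclear body proteins moved in opposite directions. SP100, a scaffold of these bodies, had 35.6 and 33.9 CPM in sgATG9A cells, against 29.6 and 29.0 CPM in sgGAL4 cells, and was higher (log2 fold change 0.25, SE 0.07, adjusted p = 0.0242, edgeR). SP110, a relative of SP100 on the same chromosome (2, 230167293 to 230225729), had 6.27 and 5.84 CPM in sgATG9A cells, against 8.52 and 9.20 CPM in sgGAL4 cells, and was 1.46-fold lower (log2 fold change -0.55, SE 0.14, adjusted p = 0.00632, edgeR). Neither pair of groups overlapped, but both calls depended on the libraries used.

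Without sgGAL4 replicate 2 the adjusted p of SP110 was 0.0676, in a range of 0.00114 to 0.103 over the 9 alternatives, and DESeq2 and no filter on low counts also lost the call. SP100 was lost without sgATG9A replicate 1 (adjusted p = 0.172), without sgGAL4 replicate 1 (0.0805) or 2 (0.113), with DESeq2 and with no filter, in a range of 0.00707 to 0.172. An antisense gene covers 18.38% of the exon bases of SP110, and since the counting did not use strand, reads of either gene in that stretch cannot be told apart and were left out.

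The immunoproteasome and guanylate-binding proteins are known best as targets of interferon-γ. By edgeR 4 of 5 genes were higher (80.0%, against 8.93% of all genes tested) and none lower, and DESeq2 called 1 of the 4. GBP1, a GTPase that coats intracellular pathogens, had 15.6 and 18.7 CPM in sgATG9A cells, against 9.10 and 9.42 CPM in sgGAL4 cells (log2 fold change 0.89, SE 0.12, adjusted p = 4.99e-06, edgeR). PSMB9, a catalytic subunit of the immunoproteasome, had 13.8 and 12.3 CPM in sgATG9A cells, against 9.81 and 8.76 CPM in sgGAL4 cells (log2 fold change 0.49, SE 0.12, adjusted p = 0.00491, edgeR). GBP3, a GTPase next to GBP1, had 19.4 and 18.9 CPM in sgATG9A cells, against 15.5 and 14.2 CPM in sgGAL4 cells (log2 fold change 0.37, SE 0.10, adjusted p = 0.00963, edgeR). The groups of all 3 were apart, and GBP2, the fourth, was higher as well (log2 fold change 0.54, SE 0.15, adjusted p = 0.0128, edgeR).

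GBP1 was called under all 9 alternatives. The other calls were lost without sgGAL4 replicate 2 (adjusted p = 0.0768 for PSMB9, 0.109 for GBP3 and 0.109 for GBP2), with DESeq2 and with no filter on low counts, and GBP2 also without sgATG9A replicate 1 (0.0788). Their adjusted p ran from 0.000428 to 0.0981 for PSMB9, from 0.00157 to 0.109 for GBP3 and from 0.00329 to 0.149 for GBP2. PSMB8, the partner subunit whose gene overlaps PSMB9 on the opposite strand, had 648 and 631 counts in sgATG9A cells, against 627 and 637 counts in sgGAL4 cells. The groups overlapped (log2 fold change 0.01, 95% interval -0.15 to 0.17). The noncoding gene PSMB8-AS1 on the opposite strand covers 20.62% of the exon bases of PSMB8, and reads from them were not counted.

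The other induced proteins have less settled roles. Among 6 tested genes 2 were higher (33.3%, against 8.93% of all genes tested), 1 was lower (16.7%, against 7.42%) and 3 did not pass. IFI44 (chromosome 1, 78649796 to 78664078), a protein of the cytoplasm, had 117 and 116 CPM in sgATG9A cells, against 23.2 and 20.9 CPM in sgGAL4 cells. The libraries of each group lay close together and the groups far apart (5.28-fold higher, log2 fold change 2.40, SE 0.07, adjusted p = 4.02e-18, edgeR). IFI27, a mitochondrial and nuclear membrane protein, had 19.3 and 18.9 CPM in sgATG9A cells, against 12.5 and 13.2 CPM in sgGAL4 cells (log2 fold change 0.56, SE 0.10, adjusted p = 0.000211, edgeR). IFI6, a relative of IFI27 that can delay apoptosis, had 17.7 and 16.3 CPM in sgATG9A cells, against 21.5 and 19.8 CPM in sgGAL4 cells, and was lower by 1.22-fold (log2 fold change -0.28, SE 0.09, adjusted p = 0.0439, edgeR).

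The IFI6 call was kept under 4 of 9 alternatives (adjusted p from 0.0160 to 0.273). It was lost without sgATG9A replicate 2 (0.261), without sgGAL4 replicate 1 (0.273) or 2 (0.0642), with DESeq2 and with no filter on low counts. IFI44L, the paralog and neighbour of IFI44, had 22 and 14 counts in sgATG9A cells, against 10 and 21 counts in sgGAL4 cells, and it did not pass (log2 fold change 0.21), with a wide 95% interval (-0.73 to 1.15) that includes a 2-fold increase. IFI35 and LGALS3BP did not pass, at log2 fold changes of 0.21 and -0.06, and EPSTI1 had 0 and 0 counts in sgATG9A cells, against 1 and 1 counts in sgGAL4 cells.

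The transcription factors and signalling proteins had small fold changes. Of 7 genes 1 was higher (14.3%, against 8.93% of all genes tested) and none lower, with log2 fold changes from 0.02 to 0.30. DTX3L, a ligase that pairs with PARP9 and modifies histones at interferon-stimulated genes, had 28.7 and 31.4 CPM in sgATG9A cells, against 24.3 and 24.6 CPM in sgGAL4 cells (log2 fold change 0.30, SE 0.08, adjusted p = 0.0124, edgeR). That call was lost under 5 of 9 alternatives (adjusted p from 0.00172 to 0.156), with DESeq2, with no filter, without sgATG9A replicate 2 (0.156) and without sgGAL4 replicate 1 (0.0792) or 2 (0.0596).

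PARP14, another ADP-ribosyltransferase of this group, had 34.0 and 38.9 CPM in sgATG9A cells, against 32.9 and 29.2 CPM in sgGAL4 cells, and fell short of the threshold (log2 fold change 0.23, adjusted p = 0.0570, edgeR); without sgATG9A replicate 1 it passed (log2 fold change 0.33, adjusted p = 0.00878). IRF1, a factor that interferon-γ induces, had 12.1 and 13.4 CPM in sgATG9A cells, against 10.6 and 12.5 CPM in sgGAL4 cells, which overlap (log2 fold change 0.14, 95% interval -0.09 to 0.38, adjusted p = 0.455, edgeR). STAT2 had a log2 fold change of 0.05 (95% interval -0.10 to 0.21) and IRF7, the factor that amplifies interferon production, 0.09 (95% interval -0.20 to 0.39). PARP9 had 0.02 (95% interval -0.22 to 0.26). IRF9, at 1.77 and 1.49 CPM in sgATG9A cells, against 1.03 and 1.76 CPM in sgGAL4 cells, was too low for a narrow interval (-0.44 to 0.89), and 48.44% of its exon bases are shared with another gene model, so that reads from them were not counted.

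Over all classes the 24 genes that did not pass had log2 fold changes from -0.15 to 0.58, and in 22 of them the 95% interval excludes a 2-fold change in either direction. In 14 of the 24 the groups do not overlap, with no call, as in 46.5% of the 13502 genes tested that were not called. Of the 25 called genes, 12 kept the call under all 9 alternatives, all of them higher: DDX60, DDX58, OASL, OAS3, ISG15, TRIM25, IFIT3, PARP12, SAMD9, GBP1, IFI44 and IFI27. The other 13, which include all 4 lower genes, lost it under at least 1.

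Interferon-stimulated genes often lie in clusters of paralogs, and here neighbours differed in their calls. IFI44 and IFI44L lie 3651 bases apart, and DDX60 and DDX60L 37928 bases apart. In both pairs the 95% interval of the higher gene (2.27 to 2.54 for IFI44 and 2.33 to 2.69 for DDX60, on the log2 scale) lies above that of its neighbour (-0.73 to 1.15 for IFI44L and 0.08 to 0.53 for DDX60L). In the IFIT cluster on chromosome 10, IFIT3 (0.58 to 1.15) lies above IFIT1 (-0.07 to 0.41) and IFIT5 (-0.26 to 0.09), whereas the interval of IFIT2 (0.13 to 1.03) overlaps it. SAMD9 and SAMD9L were called alike (0.41 to 0.74 and 0.15 to 0.78), as were GBP1, GBP2 and GBP3. The difference between neighbours was not tested directly.

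**Figure D5:**
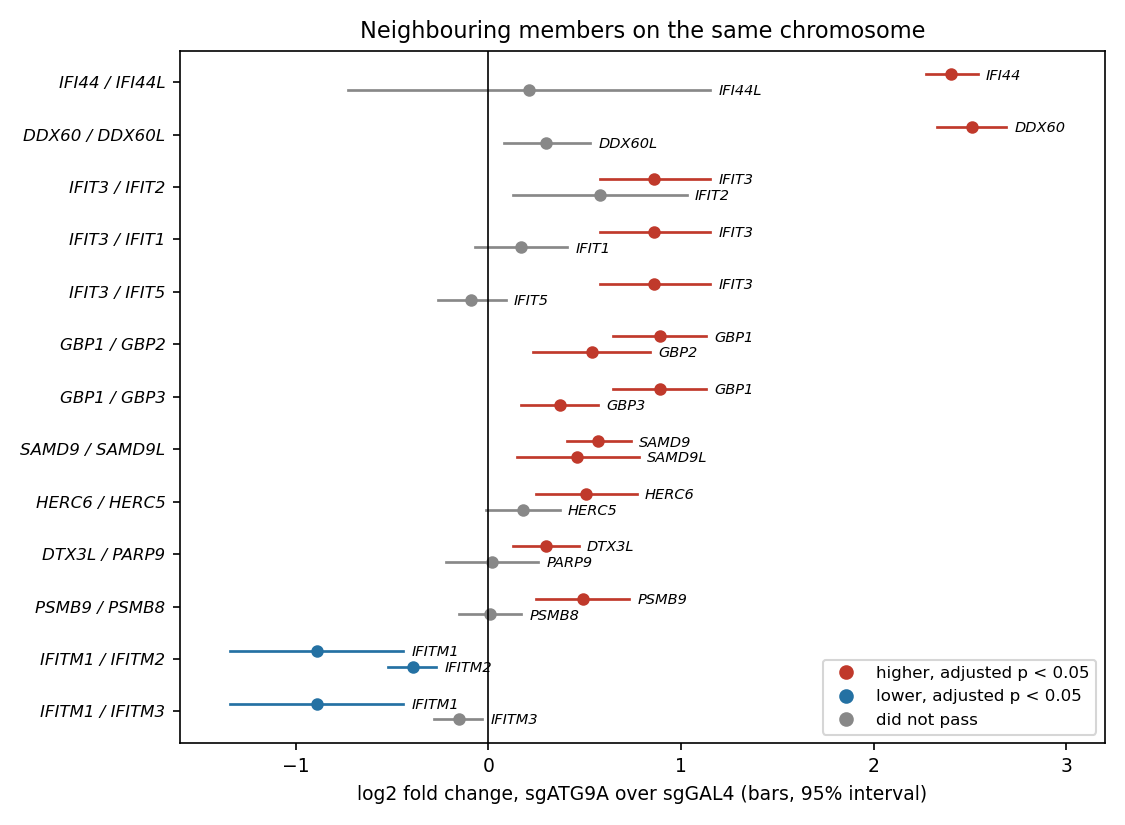
Log2 fold change (horizontal axis, sgATG9A over sgGAL4) with 95% intervals of 13 pairs of neighbouring interferon-stimulated genes (1 pair per row), red for higher, blue for lower and grey for genes that did not pass. IFI44 and DDX60, at 2.40 and 2.51, lie far to the right of their neighbours IFI44L and DDX60L, at 0.21 and 0.30, while SAMD9 and SAMD9L lie side by side at 0.57 and 0.46.

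The genes upstream of these were taken from lists of interferon ligands, receptors and kinases, sensing adaptors and other factors. None of 11 interferon ligand genes had enough counts to test: 9, among them IFNB1, IFNA1, IFNG and IFNL1, were at 0 in all 4 libraries, IFNE had 3 and 2 counts in sgATG9A cells against 2 and 0 in sgGAL4 cells, and IFNK had 0 and 0 in sgATG9A cells against 1 and 0 in sgGAL4 cells. Of 9 receptor and kinase genes 2 were higher (22.2%, against 8.93% of all genes tested) and none lower by edgeR, and 1 was higher by DESeq2. JAK1, the kinase shared by the interferon receptors, had 268 and 271 CPM in sgATG9A cells, against 172 and 179.8 CPM in sgGAL4 cells (1.53-fold higher, log2 fold change 0.61, SE 0.05, adjusted p = 6.12e-09, edgeR). IFNGR1, a chain of the interferon-γ receptor, was higher by less (log2 fold change 0.27, SE 0.07, adjusted p = 0.00885, edgeR), and its partner IFNGR2 did not pass (log2 fold change 0.18, adjusted p = 0.0651, edgeR). JAK1 kept its call under all 9 alternatives, whereas IFNGR1 lost it with DESeq2, with no filter and without sgATG9A replicate 1 (0.0559) or sgGAL4 replicate 1 (0.0625), with adjusted p from 0.00139 to 0.0757.

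Of 10 sensing adaptors and kinases, 5 were higher by edgeR (50.0%, against 8.93% of all genes tested) and 1 was lower (10.0%, against 7.42%). DESeq2 called 4 higher and 1 lower. CGAS, the enzyme that senses DNA in the cytosol, had 109 and 109 CPM in sgATG9A cells, against 78.7 and 81.5 CPM in sgGAL4 cells (log2 fold change 0.45, SE 0.05, adjusted p = 9.43e-07, edgeR). TICAM1, the adaptor of the RNA receptor TLR3, had a log2 fold change of 0.57 (SE 0.09, adjusted p = 3.50e-05, edgeR). MAVS, the mitochondrial adaptor through which RIG-I and MDA5 signal, was the lower gene, with 111 and 114 CPM in sgATG9A cells, against 151 and 137 CPM in sgGAL4 cells (log2 fold change -0.36, SE 0.05, adjusted p = 5.30e-05, edgeR). The sensor DDX58 and its adaptor thus moved in opposite directions. The other higher genes, named after their values were seen, were TRAF3, TBK1 and IKBKE, which act below the adaptors, at log2 fold changes of 0.33, 0.24 and 0.73. CGAS, TICAM1, MAVS and TRAF3 kept their calls under all 9 alternatives. TBK1 lost it under 4 (adjusted p from 0.00219 to 0.202), among them without sgATG9A replicate 2 (0.202) and without sgGAL4 replicate 2 (0.165), and IKBKE under 2 (from 3.06e-05 to 0.0820), among them without sgGAL4 replicate 1 (0.0603).

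The list of other factors and feedback inhibitors held 8 tested genes, of which 1 was higher (12.5%, against 8.93% of all genes tested). It was STAT3 (log2 fold change 0.18, SE 0.05, adjusted p = 0.0188, edgeR). DESeq2 called none higher, and STAT3 kept its call under 4 of 9 alternatives (adjusted p from 0.00586 to 0.136), losing it also with no filter and without sgATG9A replicate 1 (adjusted p = 0.136) or sgGAL4 replicate 1 (0.105) or 2 (0.0753). SOCS1, a feedback inhibitor of JAK kinases, did not pass (log2 fold change 0.82, 95% interval 0.20 to 1.45, adjusted p = 0.0638, edgeR), nor did PIAS1 (log2 fold change 0.17, adjusted p = 0.0744, edgeR).

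A second list held 33 interferon-stimulated genes outside the 57, and its difference from them was not tested. Of its 25 tested genes 3 were higher (12.0%, against 8.93% of all genes tested) and 2 lower (8.00%, against 7.42%), and the median log2 fold change was 0.09. DESeq2 called 2 higher and 1 lower. ZC3HAV1, which encodes the zinc-finger antiviral protein, had 159 and 174 CPM in sgATG9A cells, against 119 and 121 CPM in sgGAL4 cells (log2 fold change 0.47, SE 0.06, adjusted p = 1.35e-06, edgeR). ZNFX1, an RNA helicase, was also higher (log2 fold change 0.31, SE 0.05, adjusted p = 0.000237, edgeR), and LY6E, a membrane protein that blocks coronavirus entry, was lower (log2 fold change -0.24, SE 0.05, adjusted p = 0.00308, edgeR). PML, higher, and RNF213, lower, were named after their values were seen, and each kept its call under 4 of 9 alternatives. PML lost it without sgATG9A replicate 1 (adjusted p = 0.124) or sgGAL4 replicate 1 (0.0576) or 2 (0.0706), and RNF213 without sgATG9A replicate 1 (0.146) or 2 (0.157) or sgGAL4 replicate 1 (0.174), as both did with DESeq2 and with no filter. LY6E lost its call with no filter and without sgATG9A replicate 2 (adjusted p = 0.0580, in a range of 1.33e-05 to 0.0629), and ZC3HAV1 and ZNFX1 kept theirs under all 9.

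Markers of other cells were looked for beside these results. Of 10 leukocyte and macrophage markers PTPRC, TYROBP and CD163 were at 0 in all 4 libraries, and the summed level of the 10 was 1.72 to 1.80 CPM in sgATG9A cells, against 1.92 to 2.07 CPM in sgGAL4 cells. In that sum CD14 was lower, with 6 and 1 counts in sgATG9A cells against 23 and 20 counts in sgGAL4 cells (log2 fold change -2.58, SE 0.69, adjusted p = 0.00364, edgeR), and ITGAM was higher, with 19 and 28 counts in sgATG9A cells against 5 and 9 counts in sgGAL4 cells (log2 fold change 1.72, SE 0.52, adjusted p = 0.0161, edgeR). CSF1R did not pass (log2 fold change -0.61). At these few counts the CD14 call was kept under 5 of 9 alternatives and lost without sgATG9A replicate 2 (adjusted p = 0.0732) or sgGAL4 replicate 1 (0.0721), and that of ITGAM was kept under 4 and lost without sgATG9A replicate 2 (0.208) or sgGAL4 replicate 1 (0.196) or 2 (0.0559). The plasmacytoid dendritic cell markers CLEC4C, LILRA4 and IRF8 were at 0 as well, with a summed level of the 5 markers of 12.4 to 12.8 CPM in sgATG9A cells, against 10.9 to 13.3 CPM in sgGAL4 cells, nearly all of it TCF4; neither TCF4 nor IL3RA passed (log2 fold changes 0.04 and 0.40). The 10 epithelial and ovarian carcinoma markers summed to 2461 to 2466 CPM in sgATG9A cells, against 3849 to 3978 CPM in sgGAL4 cells. In that list KRT19 was at 0 in all 4 libraries and MUC16 had 2 counts in all. EPCAM, MSLN, CDH1 and WT1 did not pass (log2 fold changes 0.04, -0.07, 0.37 and 0.46). The keratins KRT7, KRT8 and KRT18 were lower (log2 fold changes -0.79, -0.73 and -0.83) and the transcription factor PAX8 was higher (1.21). These shifts moved with the same libraries as the interferon-stimulated genes, and their part in the results was not tested.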

How the data were processed

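The authors deposited raw counts per gene of 4 OVCAR-8 libraries: reads were trimmed with cutadapt, checked with FastQC, aligned to GRCh38 with STAR, and uniquely mapped reads over GENCODE 28 exons were counted with featureCounts, without strand and leaving out reads on more than 1 gene. The kit in the labels (3′ ends) and the reads in the paper's methods (paired-end) differ, and which applies was not settled. Gene names came from GENCODE 29 (58261 of 58381 identifiers). The tests used edgeR 4.0.16 under R 4.3.3, with TMM factors after filterByExpr and a quasi-likelihood fit without covariates. The tests were also tried on simulated data with known changes. With 2 libraries per group, totals of 22200998 to 22969233 limit the precision.

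The 57 members and all lists were chosen with earlier results of these data known, and no list was tested as a set. Library values are given for members changed 2-fold or lower and for the 3 smallest p of each class; context lists name their 3 smallest p. A gene that the rule also names is not reported here. Alternatives were DESeq2 1.42.0 (the authors' tool), RLE size factors, no filter, a filter at 50 counts, leaving out each library, and the replicate number as a block. Single-cell files of mouse cells were not used here.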

Additional observations from a re-analysis of the deposited data

How the results depend on the processing

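The count of 21 higher genes became 13 with DESeq2 and 12 with no filter on low counts, which tests 32430 genes in place of 16141, and the count of 4 lower genes became 1 and 0 (4 at an unadjusted p under 0.05 in edgeR with no filter, and 1 at an adjusted p with DESeq2). Calls over all genes, in either direction, also fell. They were 2639 of 16141 in the main test, 1456 of 13158 with DESeq2 and 943 of 32430 with no filter. Leaving out each library in turn gave 14 to 20 higher and 1 to 4 lower genes, with 2 lower without sgATG9A replicate 2 and 1 without sgGAL4 replicate 2. RLE size factors and a filter at 50 counts gave 21 and 4 each. The median log2 fold change ran from 0.22 to 0.27 over the alternatives, and none of the 25 called genes, nor of the called genes in the other lists, changed direction. DESeq2 gave an adjusted p for 47 of the genes. The cause of the shift with DESeq2 was not tested.

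With the replicate number as a block 24 genes were higher and 5 lower, and all 25 calls were kept. The sources do not say that equal numbers mark a shared preparation, and the replicate differences of the 2 groups correlated across genes at 0.07115, and those above a mean log2 CPM of 3 at 0.1524. The pairing was not used, since no source states it.

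The 2 libraries per group and the low counts of some genes limit the depth: 8 of 57 genes could not be tested, the most abundant of these with 13 counts in all.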
